A study of Mus musculus with 30 samples.

Results

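The genes described here carry the calcium of the heartbeat: 3 subunits of the L-type calcium channel, and 7 genes of calcium release, storage and removal at the sarcoplasmic reticulum (SR) and the cell membrane. They were chosen by symbol, as a list of 10 (Cacna1c, Cacnb2, Cacna2d1, Ryr2, Jph2, Casq2, Hrc, Atp2a2, Pln and Slc8a1), out of 13575 genes in the deposited expression table. All 10 were in the table, each under a single identifier, and all 10 passed the filter on low values that left 13256 genes for testing. The study concerns REV-ERBα and REV-ERBβ, nuclear receptors that repress genes of the body clock, in heart muscle. RNA came from hearts of mice 2 months old, with the atria trimmed off, taken at ZT10 (10 hours after lights on in the usual zeitgeber convention). The 3 control libraries are titled RevFloxed_Control, and the 3 libraries titled CM-RevDKO are of the cardiomyocyte double knockout. The series' protocol for chromatin from these mice gives the genotype as Rev-erba/b ff/ff with or without aMHC-Cre, a Cre recombinase under the alpha myosin heavy chain promoter, which is active in cardiomyocytes. Other heart cells keep both genes by that design, and where the controls carry no Cre, its own effect and the loss of the receptors cannot be told apart. The remaining 24 of the 30 samples, from chromatin assays, were not analysed here.

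In each beat, depolarisation opens the L-type channel, and the entering calcium opens the ryanodine receptor of the adjoining SR, which releases far more. Relaxation follows as the SERCA pump returns calcium to the SR and the sodium-calcium exchanger carries the rest out of the cell. Phospholamban holds the pump back until it is phosphorylated, calsequestrin stores calcium inside the SR, and junctophilin keeps the 2 membranes close together.

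The checks on the libraries are brief. Arntl, a clock gene that REV-ERB represses, stood at 0.0831 to 0.295 FPKM in the control libraries and reached 12.5 to 13.0 FPKM in each library labelled CM-RevDKO. Of the targeted genes, Nr1d1 was higher in the libraries labelled CM-RevDKO (47.4 to 55.6 FPKM, against 15.01 to 23.9 FPKM), which goes against the label, and Nr1d2 was lower (26.6 to 28.8 FPKM, against 30.6 to 40.3 FPKM) without passing the test. A gene-level value can include exons outside the deleted part and other cell types, so these 2 genes check nothing about the deletion, and every direction below rests on the labels. FPKM counts mapped fragments scaled to transcript length and to the library, so levels of different genes can be set side by side; the sequencing depth is unknown. All 10 ventricular muscle markers were measured, and their sum was 36423 to 39304 FPKM in the controls and 40455 to 43088 FPKM across the libraries labelled CM-RevDKO. Of these markers Mybpc3 passed the test as higher (means of 532 and 831 FPKM, limma adjusted p = 0.0469), while Myh6 (4421 and 3496 FPKM, 0.177) and Tnni3 (3674 and 3175 FPKM, 0.312) lay lower without passing. CM-RevDKO replicates 1 and 2 stood apart in 2 abundant transcripts. There mt-Atp8 reached 18989 and 19303 FPKM, against 8032 to 9769 FPKM in the other 4 libraries. A larger split was that of mmu-mir-689-2, at 3683 and 1813 FPKM, against 25204 to 42294 FPKM in the other 4. Mitochondrially encoded genes together held 38.3% and 40.9% of the summed values in those 2 libraries, against 36.9% to 41.0%. These values come from bulk tissue, in which fewer cells of a type and less RNA per cell cannot be told apart.

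Cacnb2, which encodes the beta subunit that brings the L-type channel to the membrane and tunes its opening, was the single gene of the 10 that passed the test. It fell to about 0.521 of its control mean. The test was limma on log2(FPKM + 1) with Benjamini-Hochberg adjustment over all 13256 genes and a threshold of 0.05, which 2.5% of all genes passed, 1.24% as lower and 1.26% as higher. Across the 10 genes 4 log2 differences were positive and 6 negative, with a median of -0.14; over all genes tested the median was 0.02. The ranges of the groups were separate in 6 of the 10 genes (1 higher, 5 lower), which held for 23.1% of all genes tested (12.6% higher, 10.5% lower). An unadjusted p under 0.05 was found for 6 of the 10 genes and for 16.6% of all genes. The shares rest on 10 genes, chosen with earlier results of these data known.

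**Figure D1:**
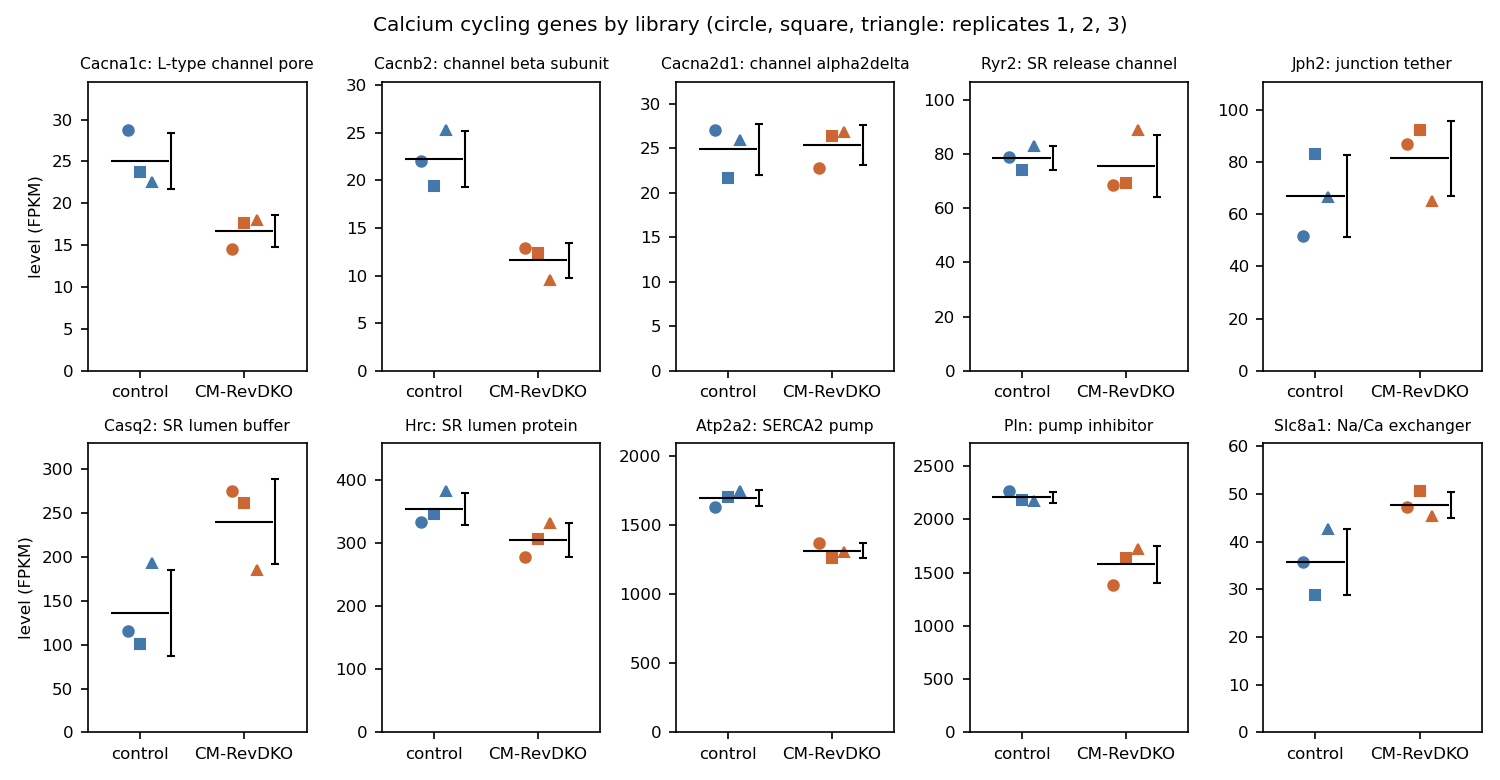
Level of each of the 10 genes (FPKM, axis from 0) in the 3 control libraries (blue) and the 3 libraries labelled CM-RevDKO (orange). Symbols mark replicates, lines the means and bars 1 SD. Cacna1c, Cacnb2, Atp2a2, Pln and Hrc lay below all control libraries in each CM-RevDKO library, and Slc8a1 above them.

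In the control libraries Pln was the most abundant of the 10 transcripts, at 2207 ± 50.4 FPKM (SD, n = 3), followed by Atp2a2 at 1694 ± 57.7 FPKM, Hrc at 354 ± 25.1 FPKM and Casq2 at 136 ± 49.4 FPKM. Ryr2 and Jph2 came next at 78.6 and 67.0 FPKM and overlapped. Slc8a1 stood at 35.8 FPKM, above the L-type channel genes Cacna1c, Cacna2d1 and Cacnb2 at 25.1, 24.9 and 22.3 FPKM, which overlapped one another. The libraries labelled CM-RevDKO kept this order from Pln to Casq2, and Ryr2 and Jph2 again overlapped, now with Jph2 higher in the mean. The 3 channel genes no longer overlapped there: Cacna2d1 stood at 25.3 FPKM, Cacna1c at 16.7 FPKM and Cacnb2 at 11.6 FPKM.

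The start regions of 9 of the 10 genes were found in RefSeq's table for GRCm38.p6 (mm10), as 13 windows: 3 for Cacna1c, 2 each for Cacnb2 and Jph2 and 1 for each of the others. The start a window is tied to need not be the end of the gene: the spans given here for Cacna1c, Cacnb2, Cacna2d1 and Jph2 reach beyond every start with a window, so their windows lie wholly or partly within those spans. The 250 bases before each start were searched on both strands for 3 motifs of clock factors: AGGTCA, the half-site that REV-ERB binds within longer elements, TTANGTAA, a form of the D-box that E4BP4 binds, and CACGTG, the E-box of BMAL1 and CLOCK. AGGTCA lay before the starts of Ryr2 and of Jph2 and in 14% of all 32851 windows of that length. The other motifs were in none of the 13 windows and in 2.06% and 6.02% of all windows. None of these motifs holds another, and a match is a description of sequence, not a binding site. For the 2 genes with a match, 30 bases around it are shown 5′ to 3′ on the gene's strand, with the match in capitals (Jph2 holds it in the opposite direction). They lie at chr13:12107045-12107074 (minus strand), 117 bases before the start, and at chr2:163398032-163398061 (minus strand), 56 or 76 bases before the starts with a window. The match of Jph2 lies inside the gene's annotated span, at its outer end.
Ryr2: tccttggacttgAGGTCAggaagggcacag
Jph2: ttagggcaacacTGACCTttctatcctggg

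Cacnb2 (ENSMUSG00000057914, chromosome 2, 14603861 to 14988811, plus strand) has 2 starts with a window, of different composition, and a gene-level value does not say which one a transcript used. For that reason the last 30 bases before each are shown, at chr2:14604276-14604305 and chr2:14824062-14824091, both within the gene's annotated span. The 250 bases before the first of these starts hold 73.2% G and C with 30 CpG, and those before the second 46% with 3 CpG; the medians over all windows are 52.4% and 6.
Cacnb2 first start: gcgcccctcgccccggccacccagcctcgt
Cacnb2 second start: ctgaaatcagagggagttcttgacatctga

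Cacnb2 stood at 22.1, 19.4 and 25.3 FPKM in the control libraries, while the libraries labelled CM-RevDKO gave 12.9, 12.4 and 9.52 FPKM. The groups lay well apart, with the highest CM-RevDKO library below the lowest control. The log2 fold change was -0.89 (SE 0.15, 95% interval -1.23 to -0.55, limma adjusted p = 0.0267). The call held without CM-RevDKO replicate 1 (adjusted p = 0.0412) or 3 (0.0457) and ended when any of the controls (adjusted p = 0.107, 0.0507 and 0.0985 for replicates 1 to 3) or CM-RevDKO replicate 2 (0.0750) was left out, with the direction kept in each. With both control replicate 2 and CM-RevDKO replicate 1 left out, it was -1.05 (adjusted p = 0.0595). It was -1.14 when CM-RevDKO replicate 3 alone was set against the controls (adjusted p = 0.115), a fit added after seeing the data.

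Cacna1c (ENSMUSG00000051331, chromosome 6, 118587240 to 119197384) encodes the pore of the channel, through which the calcium passes. It stood at 28.8, 23.8 and 22.6 FPKM in the control libraries, while the libraries labelled CM-RevDKO gave 14.5, 17.6 and 18.0 FPKM. All 3 values were below every control, at 0.667 of the control mean, yet the difference did not pass the test (log2 -0.56, SE 0.13, 95% interval -0.86 to -0.26, limma adjusted p = 0.0792). Cacna2d1 (ENSMUSG00000040118, chromosome 5, 15934264 to 16374511) encodes the alpha2delta subunit, which is largely outside the cell and helps the channel to the surface. It stood at 27.1, 21.6 and 25.9 FPKM and at 22.7, 26.4 and 26.8 FPKM, so the groups overlapped almost fully. The interval of its log2 difference ran from -0.25 to 0.30 (limma adjusted p = 0.940), and the sign of the estimate, 0.03, turned with quantile normalization and when scaled without mitochondrial genes.

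Within a library, the ratio of Cacnb2 to Cacna1c was 0.767, 0.815 and 1.12 in the controls and 0.888, 0.703 and 0.530 in the libraries labelled CM-RevDKO. These ratios overlapped (exact two-sided permutation test, p = 0.3, where 3 against 3 cannot go below 0.1), so an unequal change of the beta and pore subunits was not shown. The log2 difference of this ratio, -0.36, was -0.17 without CM-RevDKO replicate 3, -0.19 without control replicate 3 and -0.54 without CM-RevDKO replicate 1. Of the 7 genes that overlap Cacna1c and the 6 that overlap Cacnb2, 1 each had values, and both were low. Dcp1b, which overlaps Cacna1c in RefSeq, stood at 0.889 to 1.36 FPKM in all libraries, and Gm13316, which overlaps Cacnb2, at 0.905 to 1.17 FPKM. Nothing in the sources used here says if strand was taken into account, so reads of such pairs cannot be told apart.

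**Figure D2:**
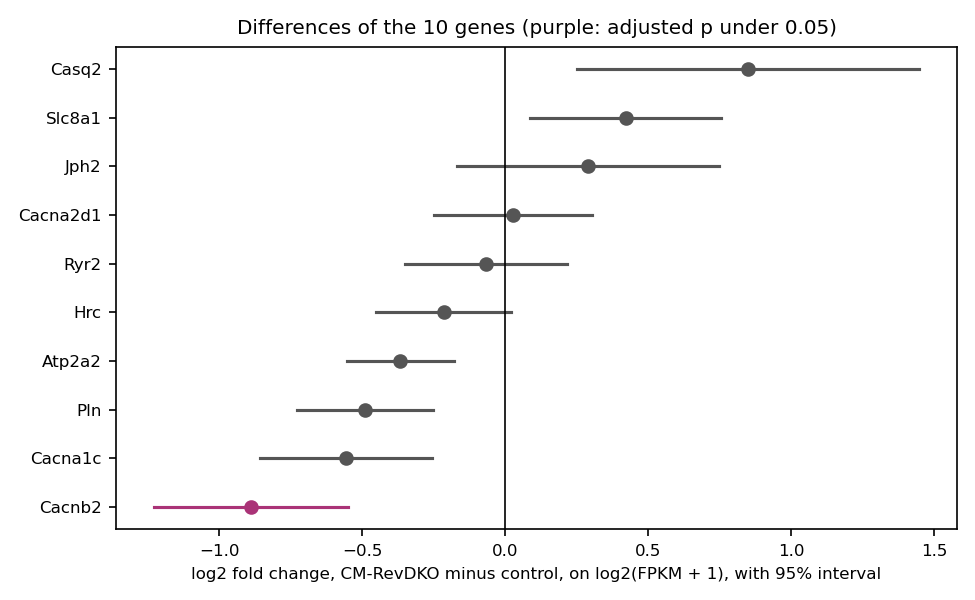
Log2 fold change of each gene (libraries labelled CM-RevDKO minus control, on log2(FPKM + 1)) with its 95% interval from limma. Cacnb2, in purple, is the 1 gene with an adjusted p under 0.05. The intervals of Cacna2d1, Ryr2, Jph2 and Hrc hold 0.

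Atp2a2 (ENSMUSG00000029467, chromosome 5, 122453513 to 122502225) encodes the SERCA2 pump, whose cardiac form returns calcium to the SR. It stood at 1632, 1703 and 1746 FPKM in the control libraries, while the libraries labelled CM-RevDKO gave 1372, 1264 and 1305 FPKM. The values were tight within each group, with no overlap, and the mean was 0.776 of the control mean. The difference did not pass the test (log2 -0.37, SE 0.08, 95% interval -0.55 to -0.18, limma adjusted p = 0.0673). It passed with quantile normalization (log2 -0.47, limma adjusted p = 0.0317) and in none of the other 15 alternatives. With 1 library left out the adjusted p ran from 0.0824 to 0.210.

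Pln (ENSMUSG00000038583, chromosome 10, 53337686 to 53345999) encodes phospholamban, the small SR membrane protein that lowers the pump's affinity for calcium. It stood at 2265, 2183 and 2174 FPKM in the control libraries, while the libraries labelled CM-RevDKO gave 1380, 1634 and 1721 FPKM. These 3 values lay below all controls, with CM-RevDKO replicate 1 the lowest and a mean at 0.715 of the control mean. The difference did not pass the test either (log2 -0.49, SE 0.10, 95% interval -0.73 to -0.25, limma adjusted p = 0.0598). It passed with quantile normalization (limma adjusted p = 0.0492) and when low genes were left out more strictly, below a mean of 5 FPKM (0.0455). It also passed without CM-RevDKO replicate 3 (0.0454), and in none of the other 13 alternatives. With 1 library left out the adjusted p rose to as much as 0.199.

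A difference between the inhibitor and its pump was not shown. The ratio of Pln to Atp2a2 was 1.39, 1.28 and 1.25 in the controls and 1.01, 1.29 and 1.32 in the libraries labelled CM-RevDKO. Only CM-RevDKO replicate 1 lay below the control range (difference -0.12 on the log2 scale, exact two-sided permutation p = 0.6). Without that library the difference was 0.0023.

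Slc8a1 (ENSMUSG00000054640, chromosome 17, 81373105 to 81738387) encodes the sodium-calcium exchanger NCX1, which moves calcium out across the cell membrane. It stood at 35.7, 28.9 and 42.7 FPKM in the control libraries, while the libraries labelled CM-RevDKO gave 47.3, 50.6 and 45.3 FPKM. Here the groups did not overlap in the other direction, although control replicate 3 came close to the lowest CM-RevDKO library. The log2 difference was 0.42 (SE 0.14, 95% interval 0.09 to 0.75) and did not pass the test (limma adjusted p = 0.197).

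Set against the pump, the exchanger gave the clearest separation of the 4 ratios computed. Slc8a1 to Atp2a2 was 0.0219, 0.0170 and 0.0245 in the controls and 0.0344, 0.0400 and 0.0347 in the libraries labelled CM-RevDKO. The difference was 0.80 on the log2 scale and held in all 3 libraries (exact two-sided permutation p = 0.1, the smallest that 3 against 3 can give). A ratio within a library does not depend on how that library was scaled, but it shows unequal change only, not which gene moved. Adjusted for the 4 ratios by Benjamini-Hochberg the p was 0.4.

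**Figure D3:**
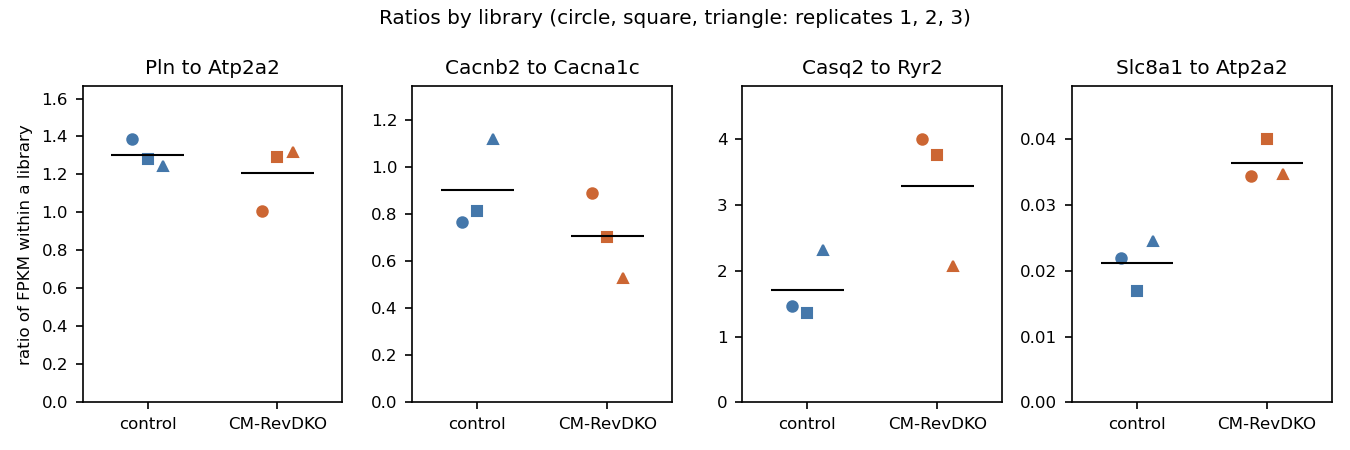
Ratio of FPKM values within each library, for 4 gene pairs, in control (blue) and CM-RevDKO (orange) libraries; lines are means and each axis starts at 0. The groups separate for Slc8a1 to Atp2a2 (0.0170 to 0.0245 against 0.0344 to 0.0400) and overlap for the other pairs.

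Ryr2 (ENSMUSG00000021313, chromosome 13, 11553099 to 12106945) encodes the ryanodine receptor, the channel through which the SR releases calcium. It stood at 78.8, 74.1 and 83.0 FPKM in the control libraries, while the libraries labelled CM-RevDKO gave 68.5, 69.2 and 88.9 FPKM. CM-RevDKO replicates 1 and 2 were the lowest of the 6 libraries and replicate 3 the highest. The interval of the log2 difference ran from -0.35 to 0.22 (estimate -0.07, limma adjusted p = 0.840). Ttn, the gene of titin, known for its very long transcript, sorted the libraries in a like way: 36.6 and 43.2 FPKM in CM-RevDKO replicates 1 and 2, 85.6 FPKM in replicate 3 and 77.3 to 83.0 FPKM in the controls. Of 19 genes with very long transcripts, a list added after seeing the data, 1 passed the test as lower and none as higher, 15 differences were negative and the median was -0.19 on the log2 scale, against 0.02 over all genes. The median log2 ratio of these 19 genes to the control mean was -0.19, -0.16 and -0.12 in CM-RevDKO replicates 1, 2 and 3, and their sum was 324, 308 and 393 FPKM in CM-RevDKO replicates 1, 2 and 3 against 369 to 459 FPKM in the controls. Their part in the values of Ryr2 was not tested.

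Jph2 (ENSMUSG00000017817, chromosome 2, 163336242 to 163398049) encodes junctophilin 2, which ties the SR to the membrane tubules. It stood at 51.6, 83.0 and 66.5 FPKM in the control libraries, while the libraries labelled CM-RevDKO gave 86.8, 92.4 and 65.2 FPKM. The groups overlapped, and CM-RevDKO replicate 3 lay near the middle of the controls. The log2 difference of 0.29 had an interval from -0.17 to 0.75 (limma adjusted p = 0.513). It ranged from 0.12 without control replicate 1 to 0.45 without control replicate 2.

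Casq2 (ENSMUSG00000027861, chromosome 3, 102086415 to 102146514) encodes cardiac calsequestrin, the main calcium buffer of the SR lumen. It stood at 116, 100.3 and 193 FPKM in the control libraries, while the libraries labelled CM-RevDKO gave 275, 261 and 185 FPKM. The spread was wide in both groups, and control replicate 3 and CM-RevDKO replicate 3 crossed. Its log2 difference of 0.85 (SE 0.26, 95% interval 0.25 to 1.45) was the largest positive one among the 10 and did not pass the test (limma adjusted p = 0.154). It was 0.49 with CM-RevDKO replicate 3 alone against the controls. The ratio of Casq2 to Ryr2 repeated this: 1.47, 1.35 and 2.32 in the controls and 4.01, 3.77 and 2.08 in the libraries labelled CM-RevDKO (exact two-sided permutation p = 0.2).

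Markers listed for other cell types varied in the same libraries. The 6 measured adipocyte markers, none of which passed the test, summed to 115 and 70.0 FPKM in CM-RevDKO replicates 1 and 2, 20.04 FPKM in replicate 3 and 13.9 to 22.6 FPKM in the controls. The 10 atrial markers, Sln among them, summed to 1933, 1134 and 1228 FPKM in CM-RevDKO replicates 1 to 3. The controls gave 554 to 625 FPKM. Nppa was the largest part of the CM-RevDKO sums, at 813, 589 and 630 FPKM, against 134 to 164 FPKM in the controls. It was the 1 of the 8 tested that passed, as higher. Of these 8 differences 7 were positive and 1 negative. Bmp10, a defining atrial gene, was listed at 0 in all libraries but CM-RevDKO replicate 1, where it stood at 1.94 FPKM. Their part in the values of Casq2, Jph2 and Sln was not tested. No fibroblast, endothelial, smooth muscle or macrophage marker, of 32 tested, passed the test, but some sums left the control range. Macrophage markers summed to 337, 200 and 205 FPKM in CM-RevDKO replicates 1 to 3, against 215 to 235 FPKM in the controls. Endothelial markers summed to 1278, 984 and 814 FPKM, against 893 to 1045 FPKM. Fabp4 was the largest part of the endothelial sums, at 1020, 759 and 581 FPKM, against 688 to 807 FPKM in the controls. The median log2 ratio of the 8 endothelial markers to the control mean was 0.27, 0.042 and -0.017, against -0.12 to 0.075 in the controls. By that measure only CM-RevDKO replicate 1 left the control range. Smooth muscle and pericyte markers summed to 254, 229 and 241 FPKM, against 190 to 237 FPKM. The fibroblast sums stayed within the control range.

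Hrc (ENSMUSG00000038239, chromosome 7, 45335269 to 45338973) encodes the histidine-rich calcium binding protein of the SR lumen, which touches both the pump and the release complex. It stood at 334, 346 and 382 FPKM in the control libraries, while the libraries labelled CM-RevDKO gave 277, 306 and 332 FPKM. The groups did not overlap, but by a margin of less than 2 FPKM, and the interval of the log2 difference, -0.45 to 0.02, held 0 (limma adjusted p = 0.340).

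Of 92 other calcium handling genes listed, 78 were tested; 1 rose and 2 fell, and 75 did not pass, where 2.5% of all genes tested passed in either direction. Their median log2 difference was 0.05, against 0.02 over all genes. The gene that rose was the furthest from 0 of all of these: Mrln, which encodes myoregulin, a small membrane protein known from skeletal muscle that inhibits SERCA. It is listed in the table as 2310015B20Rik, an older name in RefSeq. Mrln stood at 2.37, 1.47 and 1.28 FPKM in the control libraries, while the libraries labelled CM-RevDKO gave 20.8, 21.1 and 17.1 FPKM. The log2 fold change was 2.95 (SE 0.17, limma adjusted p = 3.80e-04), and the call held under every alternative run, at adjusted p = 0.0416 or less. At 19.7 ± 2.19 FPKM (SD, n = 3) it remained far below Pln at 1578 ± 177 FPKM in the same libraries.

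**Figure D4:**
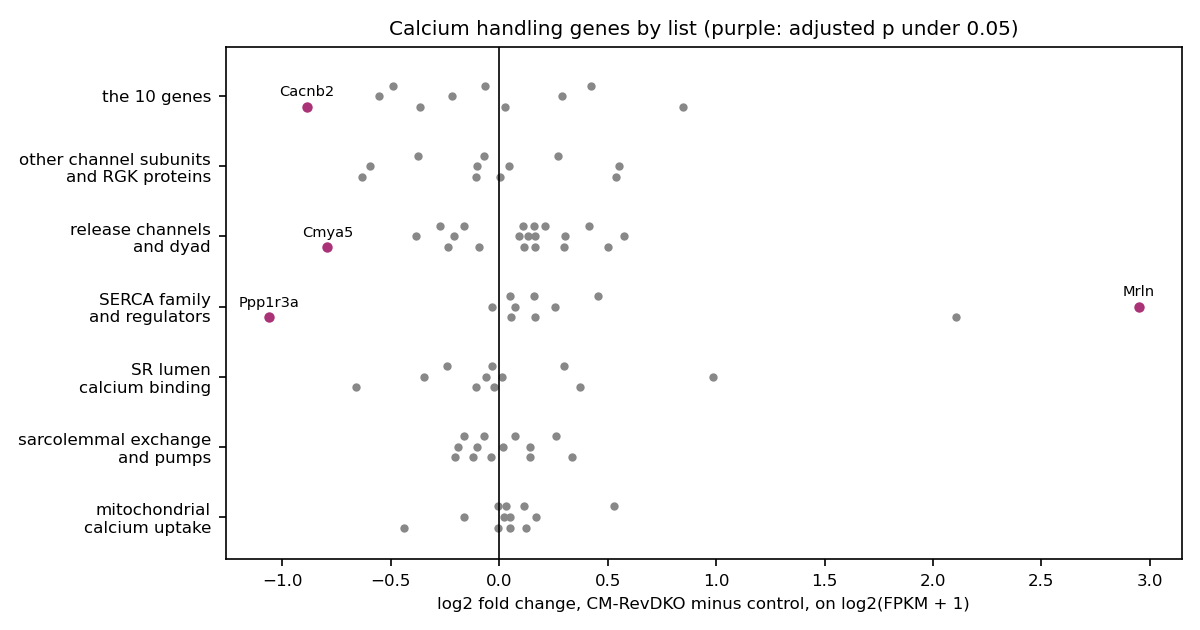
Log2 fold changes (libraries labelled CM-RevDKO minus control, on log2(FPKM + 1)) of the 10 genes and of 78 other calcium handling genes, 1 point per gene, by list. Purple points passed the test: Cacnb2 among the 10, and Cmya5, Ppp1r3a and Mrln among the others.

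Among the SERCA family and its regulators (11 tested, 1 higher and 1 lower), Ppp1r3a fell from 29.1, 31.9 and 30.1 FPKM in the controls to 12.2, 13.0 and 17.3 FPKM (log2 -1.06, limma adjusted p = 0.00998). It encodes the muscle subunit that targets protein phosphatase 1 to glycogen and the SR. Its call ended without control replicate 3 (adjusted p = 0.0514), when control replicate 2 was left out together with CM-RevDKO replicate 1 (0.0744), and with CM-RevDKO replicate 3 alone (0.127). Sln, which encodes sarcolipin, the SERCA inhibitor of the atria, stood at 18.1, 8.23 and 25.8 FPKM and at 146, 52.7 and 46.8 FPKM, without passing (adjusted p = 0.0892). Its highest library, CM-RevDKO replicate 1, also had the highest atrial marker sum, but Sln is itself a part of that sum. Hspb6, a small heat shock protein, and Ppp1ca, a catalytic subunit of protein phosphatase 1, had the next smallest p-values (adjusted p = 0.403 and 0.506).

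Of the release channels and genes of the dyad, where membrane tubule and SR meet, 20 were tested and 1 fell. Cmya5, which encodes a scaffold protein of this junction, fell from 64.1, 61.7 and 63.2 FPKM to 29.5, 36.2 and 43.5 FPKM (log2 -0.79, limma adjusted p = 0.0327). The call ended without any 1 of the control libraries or CM-RevDKO replicate 2 (adjusted p = 0.107 to 0.124), without limma's trend (0.0549), when control replicate 2 and CM-RevDKO replicate 1 were both left out (0.0985) and with CM-RevDKO replicate 3 alone (0.223). Its transcript, like that of Ahnak, is long. The part of the lower values of long transcripts, given beside Ryr2, was not tested for either gene. Libraries did not overlap for S100a1, a calcium binding protein that acts on the pump and the ryanodine receptor (588 to 612 FPKM, against 760 to 881 FPKM, adjusted p = 0.0666). Nor did they for Tmem38b, a cation channel of the reticulum (8.57 to 9.51 FPKM, against 6.53 to 6.73 FPKM, adjusted p = 0.0827), or for Calm3, a calmodulin gene (63.9 to 65.8 FPKM, against 69.7 to 91.7 FPKM, adjusted p = 0.239). Such separation was found in 8 of the 20 genes (5 higher, 3 lower) and in 23.1% of all genes tested. Trdn, which encodes triadin, the anchor of calsequestrin at the release channel, had means of 50.6 and 54.7 FPKM (adjusted p = 0.829).

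None of the 11 other channel subunits and channel regulators passed the test. An unadjusted p under 0.05 was found for 4 of them and for 16.6% of all genes. No other beta subunit with values came near Cacnb2 in level. Cacnb1 had a mean of 2.43 FPKM in the controls and 3.10 FPKM in the libraries labelled CM-RevDKO, and Cacnb3 of 1.31 and 1.15 FPKM. Cacnb4 was listed but had no values. Ahnak, a giant protein that binds the beta subunit, stood at 64.1 to 84.7 FPKM and 40.2 to 48.7 FPKM (adjusted p = 0.0652). Rrad and Gem, small GTPases that restrain the L-type channel through its beta subunit, stood at 69.9 to 100.3 FPKM and 105 to 141 FPKM (adjusted p = 0.155), and at 0.734 to 1.27 FPKM and 1.44 to 2.40 FPKM (adjusted p = 0.208). The libraries of these 3 genes did not overlap between groups, with Ahnak lower and both GTPases higher in those labelled CM-RevDKO. The groups were separate in 5 of the 11 genes (3 higher, 2 lower), which held for 23.1% of all genes tested.

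Inside the SR none of 11 genes passed, with 3 at an unadjusted p under 0.05 (16.6% of all genes). Casq1, the calsequestrin of skeletal muscle, had means of 4.82 and 9.86 FPKM (adjusted p = 0.168), Canx, a chaperone, of 69.9 and 54.6 FPKM (0.109), and Rcn2, a reticulocalbin, of 15.6 and 19.5 FPKM (0.224). At the cell membrane none of 13 passed, with 2 at an unadjusted p under 0.05, a share near that of all genes. Stim1, the sensor of store-operated entry, had means of 4.02 and 5.32 FPKM (adjusted p = 0.205), and Fxyd1, phospholemman, of 283 and 341 FPKM (0.276).

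Of 12 genes of mitochondrial calcium uptake, none passed, with 2 at an unadjusted p under 0.05 (16.6% of all genes). Smdt1, the EMRE subunit of the uniporter, stood at 120.4, 127 and 123 FPKM in the controls and at 194, 203 and 143 FPKM in the libraries labelled CM-RevDKO (limma adjusted p = 0.106). Mcu, the pore of the uniporter, stood at 5.32, 5.27 and 5.51 FPKM and at 3.00, 3.90 and 4.29 FPKM (adjusted p = 0.141). The libraries of both genes separated by group, in opposite directions. Groups were separate in 3 of the 12 genes and in 23.1% of all genes tested. Mcur1, a regulator of the uniporter, had means of 18.1 and 16.1 FPKM (adjusted p = 0.404).

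For each of the 10 genes, the gene of these lists with the most similar pattern was sought by the root mean square difference of centred log2(FPKM + 1) values over the 6 libraries. The closest match was Mcu to Pln (0.046), and Mcu was also the nearest to Cacna1c (0.13). Tmem38b was nearest to Atp2a2 (0.067), Orai1, a channel of store-operated entry, to Hrc (0.061), and Tmem38a to Slc8a1 (0.18). Vdac3, a mitochondrial porin, was nearest to Cacna2d1 (0.070), Hspa5, a chaperone, to Ryr2 (0.093), and Hax1 to Jph2 (0.16). The largest of these distances were those of Cacnb2 to Cmya5 (0.30) and Casq2 to Smdt1 (0.33), the 2 genes with the largest log2 differences of the 10. These distances describe likeness over 6 libraries and were chosen from 78 candidates. They are not scaled for the size of a change, so genes that vary little can come out close.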

How the data were processed

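The authors deposited 1 table with a value per gene for 6 RNA libraries, 3 per group. Per the submitters' processing notes, HISAT2 and StringTie were used with mm10. The labels and the file header read here name no version, annotation or strand setting. Values in the deposited table were taken to be FPKM; the header names no unit, and they may be TPM, which differs from FPKM by 1 factor per library. Sums over the table were 678722 to 712158 per library. Low values gave no read steps (at most 4 of 466 to 876 genes under 1 FPKM shared a log2 ratio between 2 libraries), so the depth is unknown and no counting interval is given. No pair of libraries was identical. Nothing in the labels ties a replicate to an animal of its own, so a p-value here measures the spread among these libraries, which may be technical.

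Genes whose mean reached 0.5 FPKM were fitted as log2(FPKM + 1) with limma 3.58.1 in R 4.3.3 (trend, group as the only term); fold changes on this scale understate changes of low genes. The fit was tested on simulated data, with 200 genes changed in each of 10 runs. It recovered 18%, 67% and 92% of log2 changes of 0.5, 1 and 2, and 4.91% of its calls were false. Changes near 0.5 were thus mostly missed there. The simulated noise was drawn separately for each gene and library, so it held no effect shared by many genes of a library. The false share in the real libraries may therefore differ from 4.91%. Ratios used exact permutation tests in scipy 1.17.1. Positions come from RefSeq's GRCm38.p6 table, in which all 10 symbols matched; Mrln, Smdt1, Mcu and Mcur1 were found in the deposited table by older names through its synonyms. Named were the 10 genes and, from each calcium list, all genes past the test and the 3 others with the smallest p (1 of these is not reported here); Trdn, Cacnb1 and Cacnb3, Ttn, Mybpc3, Myh6, Tnni3, Dcp1b and Gm13316 were added after their values were seen. The genes and lists were chosen with earlier results of these data known. Alternatives changed the pseudocount, the filter, the scaling, the trend, a replicate block and the libraries.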

Additional observations from a re-analysis of the deposited data

How the results depend on the processing

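The count of 332 genes over the whole table was 115 with a replicate block, 120 to 322 with 1 library left out (120, 149 and 136 for controls 1 to 3, and 213, 121 and 322 for CM-RevDKO 1 to 3), and 105 with both control 2 and CM-RevDKO 1 left out. With CM-RevDKO replicate 3 alone against the controls, chosen after seeing the data, it was 21. Calls were 50.3% higher, and 35.8% higher when scaled without mitochondrially encoded genes. Of the 10 genes 1 passed. This became 3 with quantile normalization, 2 with a mean of at least 5 FPKM, 0 with the replicate block, 0 to 2 with 1 library left out, 0 with both of those left out, and 0 with CM-RevDKO replicate 3 alone. Of the other calcium genes 3 passed, 1 to 4 with 1 library left out, 1 with both of those left out, and 1 with CM-RevDKO replicate 3 alone.

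Cacnb2 had an adjusted p of 0.1003 and Cmya5 of 0.0848 with the replicate block. Same-numbered libraries did not deviate together (r = -0.037, -0.064 and 0.093 over genes), and the labels do not pair them. For the ratios the paired differences have the same means, -0.12, -0.36, 0.92 and 0.80. The sign turned for Cacna2d1 with quantile normalization (-0.022), scaled without mitochondrial genes (-0.039) and with 1 library left out (-0.065 to 0.10). It turned for Ryr2 (0.18) and Jph2 (-0.013) with CM-RevDKO replicate 3 alone. It turned for Pln to Atp2a2 without CM-RevDKO replicate 1 (0.0023, in a range from -0.19 with 1 library left out). Over all 16 alternatives the log2 difference of Cacnb2 ran from -1.14 to -0.76, of Cacna1c from -0.62 to -0.45, of Atp2a2 from -0.47 to -0.34, of Pln from -0.56 to -0.36, of Casq2 from 0.49 to 1.13 of Slc8a1 from 0.28 to 0.55 and of Hrc from -0.35 to -0.090. With 1 library left out, Ryr2 ran from -0.19 to -0.0018 and Jph2 from 0.12 to 0.45.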
